A study of Mus musculus with 46 samples.

Results

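Candidate cis-regulatory elements (cCREs) of the Klf2 locus, placed downstream of 10 promoters of the same locus in a reporter plasmid, are described here by the reporter activity of each combination against its promoter vector alone. The members were all native cCREs listed as inserts in the Downstream assay together with one of the 10 promoters, with shuffled versions, promoter fragments and the vector without promoter left out. This gave 84 cCREs among the 127 inserts of the Downstream table, and 1364 of its 2364 combinations. The cCREs and promoters formed 752 pairs, 612 of them measured with the cCRE in both orientations and 140 in 1 orientation, and 88 of the 840 possible pairs were not listed. All 10 promoters were measured for 68 cCREs, and at least 5 promoters for 76.

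The study asked how far enhancers and promoters of the mouse genome differ in which partners they work with. The host cells, of the mouse embryonic stem cell line E14TG2a, were kept in 2i+LIF, a medium of kinase inhibitors and leukaemia inhibitory factor that holds them in a naive pluripotent state. Plasmids were introduced by transient nucleofection, with RNA harvested 24 h later; the Downstream sub-libraries went in as 1 mix, and 3 biological replicates were collected. All constructs shared the cells, the medium and the plasmid backbone and differed in the promoter, the downstream insert and its orientation, and the comparison groups were the promoter vector with no insert and the same vector with 15 shuffled or 5 random inserts (361 combinations). The plasmids were not integrated in the genome and all replicates received the same plasmid pool, so error bars and p-values measure the spread between 3 transfections.

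A promoter is the DNA around a gene's start where the transcription machinery assembles. Enhancers are bound by transcription factors and raise transcription from a promoter at a distance, classically in either orientation and from either side of the gene, while silencers lower it. Klf2 encodes a Krüppel-like transcription factor of the naive pluripotency network of mouse embryonic stem cells, and the Downstream assay places the element on the far side of the reporter from its promoter.

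The 10 promoter fragments lay on mouse chromosome 8 (build mm10 per the submitters' processing notes, coordinates as deposited, each spanning 450 from start to end). P001 (chr8:71908245-71908695) holds the start of Zfp882, a zinc finger protein gene, and P009 (chr8:72160824-72161274) that of Rab8a, a small GTPase of vesicle transport. P013 (chr8:72219354-72219804) holds the Fam32a start. P014 (chr8:72239766-72240216) overlaps Ap1m1, a subunit of the AP-1 clathrin adaptor. Gene starts were looked up only in RefSeq promoter windows, and none of those lay inside P014. P016 (chr8:72318657-72319107) is the Klf2 promoter. P017 (chr8:72421385-72421835) holds the starts of Eps15l1, an endocytosis adaptor, and Gm46043. P018 (chr8:72443649-72444099) holds the starts of Calr3, a calreticulin-family chaperone, and 1700030K09Rik. P019 (chr8:72475151-72475601) is at Cherp, a calcium homeostasis protein of the endoplasmic reticulum, P021 (chr8:72548195-72548645) at Med26, a Mediator subunit, and P022 (chr8:72570844-72571294) at Smim7, and it also overlaps Tmem38a.

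A gene start from the RefSeq promoter windows lay inside 3 of the cCREs measured with at least 5 promoters: E007, E030 and E073. A cCRE said below to lie within or inside a gene overlaps it, and whole containment was not checked. E073, at a Calr3 start, had a mean log2 difference from the promoter vector alone of -0.37. Sequence was at hand for 2 of the 84 cCREs, E007 and E030, through RefSeq promoter windows (build GRCm38.p6, of which mm10 is the browser name). They are printed because they had the highest and the lowest mean effect of the cCREs measured with at least 5 promoters. Each is the 250 bases before the gene start, 5′ to 3′ on the gene's strand. E007 is chr8:71922575-71922824 on the plus strand, before Zfp617, a zinc finger protein gene, and E030 is chr8:72125925-72126174 on the minus strand, before Gm39196. P018 (chr8:72443779-72444028, minus strand, before Calr3) and P021 (chr8:72548311-72548560, minus strand, before Med26) are shown as the promoters of the pairs that stood farthest above what the cCRE and the promoter each showed on average. Capitals mark motif matches on either strand.
E007: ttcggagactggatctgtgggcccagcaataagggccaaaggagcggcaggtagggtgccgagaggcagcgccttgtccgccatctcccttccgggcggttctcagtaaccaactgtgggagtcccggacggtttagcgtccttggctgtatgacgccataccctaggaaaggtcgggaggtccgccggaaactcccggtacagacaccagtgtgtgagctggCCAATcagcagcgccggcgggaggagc
E030: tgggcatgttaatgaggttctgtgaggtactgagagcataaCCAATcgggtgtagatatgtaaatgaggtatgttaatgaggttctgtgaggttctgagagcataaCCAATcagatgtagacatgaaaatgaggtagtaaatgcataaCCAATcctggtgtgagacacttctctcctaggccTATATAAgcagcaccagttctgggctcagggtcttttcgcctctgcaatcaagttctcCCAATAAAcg
P018: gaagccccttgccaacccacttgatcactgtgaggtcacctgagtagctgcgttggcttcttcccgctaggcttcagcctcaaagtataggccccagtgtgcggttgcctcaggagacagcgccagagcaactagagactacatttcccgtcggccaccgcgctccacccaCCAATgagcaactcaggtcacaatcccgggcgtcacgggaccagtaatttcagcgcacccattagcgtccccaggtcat
P021: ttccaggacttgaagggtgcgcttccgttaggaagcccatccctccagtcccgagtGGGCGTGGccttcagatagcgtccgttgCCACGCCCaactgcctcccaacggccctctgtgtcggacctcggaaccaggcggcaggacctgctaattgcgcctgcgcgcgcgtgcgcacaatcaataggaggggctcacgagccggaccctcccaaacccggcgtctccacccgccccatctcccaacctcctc
The motifs searched were TCAAGGTCA (Esrrb) and AAGGTCA, which lies within it, ATGCAAAT (octamer), ACAAAG (Sox), GGGTGTGG and GGGCGTGG (Klf), CAGGGGGC (CTCF core) and AATAAA (polyadenylation signal). CCAAT and TATATAA were added after these sequences had been read. E030 held CCAAT 4 times, TATATAA once and AATAAA once, the last overlapping a CCAAT by its first letters. Of all 32851 windows of that length, 33.8% held CCAAT and 2.79% held it at least 3 times, while 3.04% held TATATAA and 18.1% held AATAAA. E007 and P018 each held CCAAT once, and P021 held GGGCGTGG, found in 4.79% of windows, once on each strand. E007 had a GC content of 62.8% with 18 CpG, and E030 43.6% with 3 CpG, against a median of 52.4% and 6 CpG over all windows. A match is a description of the letters, and no match says only that those letters are not in the window.

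Activity was the deposited ratio of barcodes in complementary DNA (reporter RNA) to barcodes in plasmid DNA, and all differences are log2 of the construct's activity minus log2 of its promoter vector's activity in the same replicate. The table names no sub-library for the vector alone, so the sub-library its values come from is unknown, and it lists orientations as + and - without defining them. The ratios carry no barcode or read counts, so the depth behind a value is unknown. The difference had a median SD between replicates of 0.09 and a 90th percentile of 0.15, and it correlated between replicates with r of 0.97 to 0.98 over the 1364 combinations, which share each promoter's vector value. In 10 of 10 promoters the mean difference of the cCREs was lowest in replicate 2. Per the sub-library labels, the cCRE and the control constructs of a promoter came from separate sub-libraries, so sub-library and kind of insert cannot be told apart.

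Most combinations, 964 of 1364, gave less activity than the promoter vector alone. Taken separately, 896 gave more than the mean of the control inserts of the same promoter. Only 274 were called both lower than the vector and higher than the controls. Against the vector alone, limma's test on the 3 within-replicate differences, with Benjamini-Hochberg adjustment at 0.05, called 266 of the 1364 combinations higher (19.5%) and 819 lower (60.0%). The background was close to this: of all 2145 insert combinations tested, 82.3% were called, 20.7% higher and 61.6% lower, and of the 361 control combinations 91.7% were called, 18.3% higher and 73.4% lower. The median difference was -0.25 for the cCREs and -0.28 over all tested. In this fit limma pooled the variance over all combinations into a single standard error, 0.0654, although combinations of a promoter share its vector value. Without that pooling, an alternative chosen after the data were seen, 139 were called higher and 624 lower, against backgrounds of 12.4% and 48.2% (60.7% in all), and p-values printed below for differences from the vector are from that fit. Without the replicate block 144 were higher and 581 lower, against 12.6% and 45.3% (57.9% in all).

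Direction was even across replicates for most combinations. Of the 1364, 864 were below the vector in all 3 replicates, 293 were above it in all 3 and 207 lay on both sides. Effects of 2-fold or more were few, with 17 combinations above and 104 below the vector (1.25% and 7.62%). The control combinations were more spread out, with 21 of 361 (5.82%) at 2-fold or more above and 74 (20.5%) at 2-fold or more below, and an SD over combinations of 0.74 against 0.51 for the cCREs.

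With the mean of the control inserts of the same promoter as the reference, 765 combinations were called higher and 382 lower (background over 1784 combinations of cCREs and promoter fragments 84.4%, of which 56.7% higher and 27.7% lower). With the median construct of the promoter as the reference, 592 were higher and 504 lower, with no share over all inserts computed. The sign of the typical effect therefore depended on the reference. The control mean lay below the vector with every promoter, from -1.02 with P001 to -0.07 with P017, so the tests were not independent. Combining both, the 266 combinations higher than the vector alone were all higher than the controls. The 382 lower than the controls were all lower than the vector alone. These counts therefore repeat those of the single tests. Another 274 were lower than the vector alone and higher than the controls, 225 were called only as higher than the controls, 163 only as lower than the vector alone, and 54 in neither.

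Each of the 10 promoters had a mean cCRE effect below 0. The vector activities behind these means ranged from 0.299, 0.368 and 0.394 in replicates 1 to 3 for P001 (Zfp882), the lowest, to 4.09, 3.97 and 4.37 for P022 (Smim7), the highest. The Klf2 vector P016 varied most between replicates, at 0.815, 1.37 and 1.11. The shift was shared by its constructs: relative to their means over replicates, the vector stood at -0.40, 0.35 and 0.05, the cCRE constructs at -0.38, 0.27 and 0.11 and the controls at -0.45, 0.35 and 0.10, so differences within a replicate do not carry it.

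P009 (Rab8a) showed the lowest mean over its 122 cCRE combinations, -0.43 ± 0.08 (SD, n = 3 replicates, as for the other promoters), and P001 followed at -0.36 ± 0.07. P021 (Med26) was at -0.34 ± 0.07, P016 (Klf2) at -0.31 ± 0.07 and P022 (Smim7) at -0.31 ± 0.05. P018 (Calr3) was at -0.27 ± 0.06, P013 (Fam32a) at -0.22 ± 0.08, P017 (Eps15l1) at -0.19 ± 0.07 and P014 (Ap1m1) at -0.14 ± 0.07. P019 (Cherp) was highest at -0.06 ± 0.08 over 148 combinations, with replicates at 0.01, -0.15 and -0.04, and it was the exception to a mean below the vector in all 3 replicates, which held for 9 of 10 promoters. Neighbours in this order differed by less than their SDs or by about as much. Those SDs include the shift that the promoters share within a replicate, so they do not measure the spread of a difference between promoters. P009 lay below P001 in each replicate (-0.38, -0.52 and -0.39 against -0.31, -0.44 and -0.34), while P016 and P022 changed order between replicates. No test was made across promoters. With pooled variances, the share of combinations called higher ran from 11.1% with P022 to 30.4% with P019, against 20.7% over all insert combinations. The share called lower ran from 41.9% with P019 to 69.7% with P009, against 61.6%. The shares over all inserts were not split by promoter, so whether these ranges are particular to the cCREs is unknown.

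The control inserts gave -1.02 ± 0.08 with P001, from 10 combinations only, and -0.78 ± 0.04 with P009, and the cCREs stood above the controls by 0.65 ± 0.09 and 0.34 ± 0.04 there. The cCRE mean was above the control mean with 8 of 10 promoters. The exceptions were P017, where the cCREs lay below the controls by 0.12 (-0.12 ± 0.04), and P014 (-0.06 ± 0.03). With P016 the difference, 0.04 ± 0.05, was within its replicate spread.

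**Figure D1:**
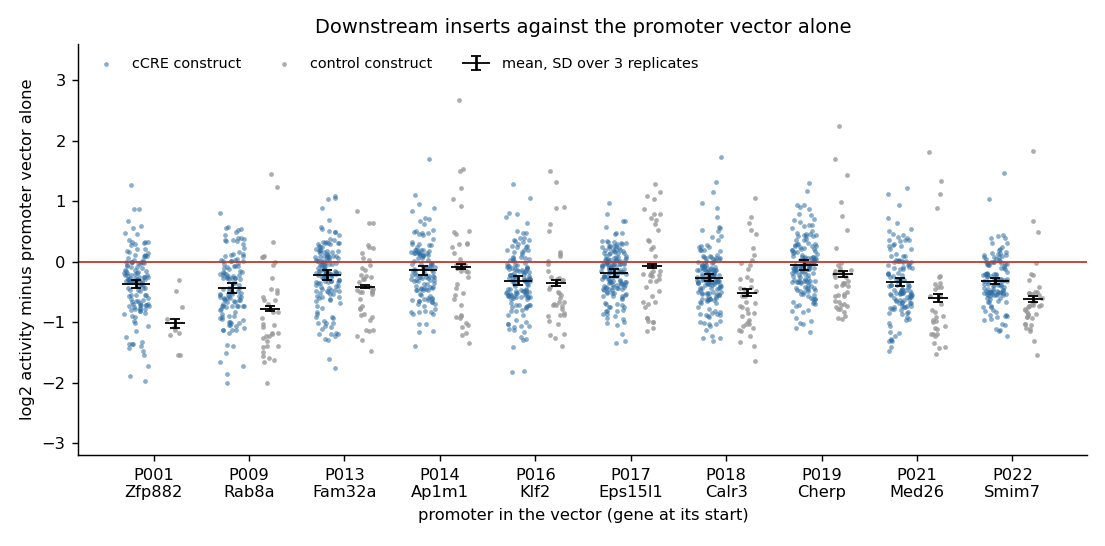
Log2 activity of each cCRE combination (blue) and control combination (grey) minus that of the promoter vector alone (red line at 0), mean of 3 replicates per point, by promoter. Black bars are the mean over combinations with the SD over 3 replicates. The cCRE means lie between -0.43 (P009) and -0.06 (P019), and the grey points are spread more widely than the blue with all promoters except P001.

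Averaged over promoters and orientations, 14 of the 76 cCREs with at least 5 promoters were called higher than the vector alone and 56 lower, against 92.4% called over all 119 inserts (18.5% higher, 73.9% lower). Without pooled variances 7 were higher and 41 lower, but the share over all inserts was not computed for that fit. The cCRE means ranged from -1.36 to 0.70, and the 20 control inserts from -0.91 to 0.24. Above the highest control lay 8 cCREs (E007, E006, E008, E029, E087, E046, E021 and E097), and below the lowest lay 3 (E030, E075 and E040). Above the vector with every promoter measured were 7 cCREs (E006, E007, E008, E021, E032, E046 and E097), below it with every promoter were 31, and 38 lay on both sides.

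**Figure D2:**
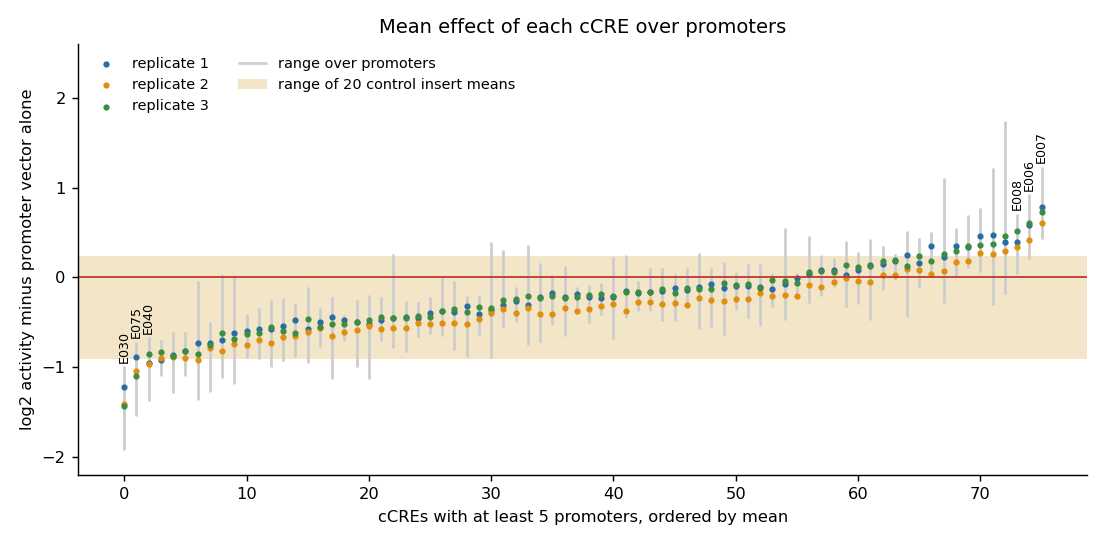
Mean log2 difference from the promoter vector alone for the 76 cCREs measured with at least 5 promoters, in order of the mean, with 1 point per replicate. Grey lines span the range over promoters and the shaded band the means of 20 control inserts, -0.91 to 0.24; 8 cCRE means lie above the band and 3 below it.

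The highest mean belonged to E007 (chr8:71922525-71922975), the fragment at the Zfp617 start shown above. Its mean difference was 0.78, 0.60 and 0.73 in the 3 replicates, or 0.70 ± 0.09 (SD, n = 3), 1.63-fold of the vector alone, with an adjusted p of 0.017 in limma without pooled variances. It was called higher in 19 of its 20 combinations (17 without pooled variances) and was above the vector in the pair mean with all 10 promoters, from 0.43 with P009 to 1.23 with P019 (Cherp). With P019 in the + orientation the activity was 0.826, 0.936 and 0.847, against 0.341, 0.450 and 0.377 for the vector alone, a 2.25-fold difference (adjusted p = 0.015). In the - orientation it was 0.902, 1.01 and 0.947, or 2.46-fold (adjusted p = 0.015). No replicate of either construct reached down to the vector's values.

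With the Klf2 promoter P016, E007 was the highest cCRE in the mean over orientations, as all highest and lowest cCREs of a promoter are given here; E087 in the - orientation was the highest single construct. In the - orientation it reached 1.90, 2.53 and 2.30 against vector values of 0.815, 1.37 and 1.11, a 2.07-fold difference (adjusted p = 0.021). In the + orientation it gave 1.24, 1.79 and 1.51, or 1.40-fold (adjusted p = 0.036; 0.060 in the fit without the replicate block). The lowest of these + values was below the vector's highest, so the groups overlapped across replicates although the construct was higher within each.

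With P022, the most active vector, E007 split by orientation. The + construct gave 4.12, 3.88 and 4.12 against 4.09, 3.97 and 4.37 for the vector, a difference of -0.04 (adjusted p = 0.36), and the values overlapped. The - construct gave 8.77, 7.79 and 8.85, or 2.04-fold (adjusted p = 0.012), with every replicate above every vector value. With P001 the - construct was 2.42-fold of the vector (0.865, 0.800 and 0.885 against 0.299, 0.368 and 0.394; adjusted p = 0.024).

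E006 (chr8:71900631-71901081), which overlaps no annotated gene and has Zfp882 as the nearest, had a mean of 0.53 ± 0.10, and was called higher in 19 of 20 combinations (17 without pooled variances). It was the highest cCRE with P009 in the mean over orientations, where its + construct gave 1.88, 1.63 and 1.64 against 1.25, 1.24 and 1.07 (1.44-fold, adjusted p = 0.032). By the same mean it was the highest with P017, where both orientations gave the same fold, 1.59-fold in + and 1.60-fold in - (adjusted p = 0.024 each). In both cases all 3 replicates of the construct were above all 3 of the vector. The highest single constructs were others. With P009 it was E003 in the + orientation, at a log2 difference of 0.80, and with P017 E007 in the - orientation, at 0.98. E008 (chr8:71922906-71923356), inside Zfp617 and overlapping E007, had a mean of 0.41 ± 0.09 and was called higher in 14 of 20 combinations (12 without pooled variances).

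The next means came from cCREs that lay on both sides of the vector. E029 (chr8:72115240-72115690, between genes) had a mean of 0.38 ± 0.09 over 7 promoters, all in the + orientation, with 3 combinations called higher and 2 lower (2 and 1 without pooled variances). Its median over promoters, taken in each replicate and then averaged, was 0.05, no longer called (limma with moderated variances, adjusted p = 0.36). E087 (chr8:72590167-72590617, within Gm51538) had a mean of 0.37 ± 0.10, with 10 of 18 combinations called higher and 7 lower (6 and 4 without pooled variances).

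The lowest mean was that of E030 (chr8:72125819-72126269), the fragment at the Gm39196 start. Its means were -1.22, -1.41 and -1.44 in the 3 replicates, or -1.36 ± 0.12, 0.390-fold of the vector alone (adjusted p = 0.014 without pooled variances). It was called lower in all 19 of its combinations with pooled variances and in 18 without, and ranged from -1.93 with P001 to -0.99 with P022. In the mean over the orientations measured it was the lowest cCRE with 6 of the 10 promoters (P001, P009, P013, P014, P016 and P021). With P014 it was measured in + only, at -1.02, and the lowest single construct there was E034 in the - orientation, at -1.39. With P009 in the - orientation E030 gave 0.334, 0.328 and 0.237 against 1.25, 1.24 and 1.07, a 4.00-fold lower activity (adjusted p = 0.013). With P016 in the - orientation it gave 0.199, 0.390 and 0.359 against 0.815, 1.37 and 1.11, or 3.54-fold lower (adjusted p = 0.016). None of these replicates reached a vector value. With P001 in the - orientation the replicates differed, at 0.141, 0.071 and 0.072 against 0.299, 0.368 and 0.394 (3.92-fold lower, adjusted p = 0.069).

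Of the other low cCREs, E075 (chr8:72453911-72454361, within 1700030K09Rik) had a mean of -1.01 ± 0.11 and E040 (chr8:72211896-72212346, within Cib3) of -0.93 ± 0.06. E092 (chr8:72654903-72655353) and E098 (chr8:72677306-72677756), both within Nwd1, had -0.88 ± 0.05 and -0.88 ± 0.01. All combinations of these cCREs were called lower, with and without pooled variances: 20 for E075, 12 for E040, 20 for E092 and 20 for E098. E040, measured in + only with P022, was the lowest pair mean there, at 1.99, 1.96 and 2.18 against 4.09, 3.97 and 4.37 (2.03-fold lower, adjusted p = 0.0080), with no overlap, while the lowest single construct was E005 in the + orientation (1.76, 1.71 and 1.82). E022 (chr8:72004717-72005167, within Cyp4f18 and Gm51535) was measured with 4 promoters, all near the same value, between -1.35 and -1.16. It had the lowest pair mean with P017 (2.54-fold lower, adjusted p = 0.016), P018 (2.36-fold lower, adjusted p = 0.0091) and P019 (2.24-fold lower, adjusted p = 0.014). With each of these it was measured in + only. It was also the lowest single construct with P017 and P019. With P018 the lowest single construct was E030 in the - orientation, at -1.31 against -1.24 for E022.

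The other 7 cCREs with under 5 promoters had means between -0.55 (E094, 2 promoters) and 0.14 (E111, 1 promoter). E016 was at -0.50 with 3 promoters, E108 at -0.27 with 2, E052 at -0.24 with 4, E102 at -0.18 with 1 and E067 at -0.06 with 3. E067 ranged from -0.45 to 0.57 over its promoters.

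**Figure D3:**
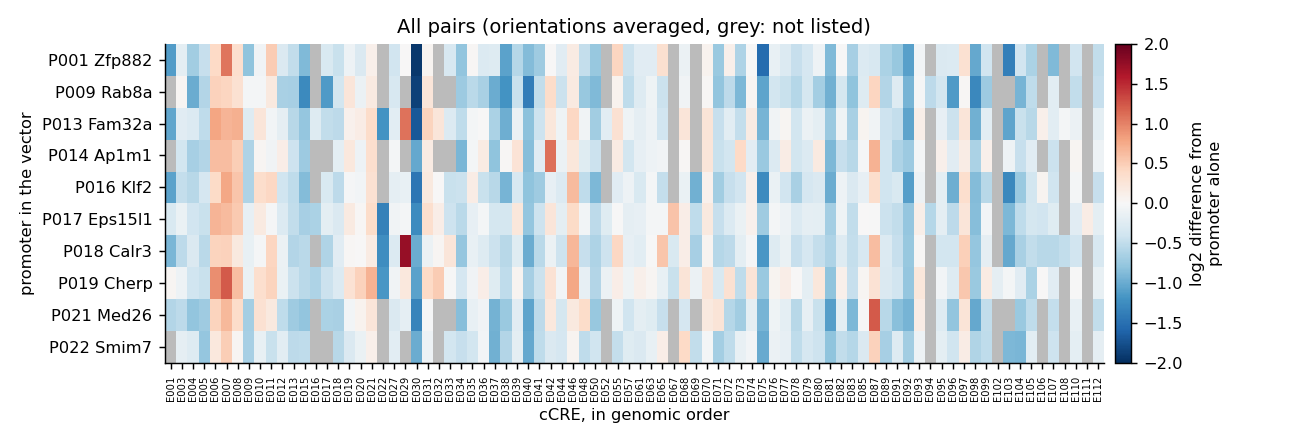
Log2 difference from the promoter vector alone for each pair of a cCRE (columns, in genomic order) and a promoter (rows), mean over orientations and 3 replicates; red is above the vector, blue below, and grey pairs were not listed. E006 to E008 form a red block with all promoters and E030 a blue column, while E029, E042 and E087 stand out with single promoters.

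The order of the cCREs was similar from promoter to promoter. Over the 45 pairs of promoters, the correlation of the cCRE differences was between 0.65 and 0.88, with a median of 0.78, over 68 to 80 cCREs. The points share the 3 transfections and the cCREs, but each promoter has its own vector value. The mean correlation with the other promoters was lowest for P014, at 0.72, and highest for P017, at 0.82.

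Departures from that shared order were tested as each pair's difference minus a sum of averages. That sum was the average effect of its cCRE plus that of its promoter, minus the average over all pairs. Of 732 pairs, 508 were called (69.4%), 243 above the sum (33.2%) and 265 below (36.2%). In a fit over all 1143 insert pairs, added after the data were seen, 71% were called, 31.8% above and 39.2% below, and of the 186 pairs of control inserts 80.6%, 31.2% above and 49.5% below, so the share among cCREs was near or under the background. Among the cCREs the median absolute departure was 0.11. Without moderated variances 159 were above and 168 below, but the share over all insert pairs was not computed for that fit. The departures were wider among the 121 pairs measured in 1 orientation, with an SD of 0.32, than among the 611 measured in both, with an SD of 0.18. By promoter the median absolute departure ran from 0.05 (P017) to 0.15 (P014).

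The widest upward departure was E029 with P018 (Calr3). The construct gave 3.93, 4.27 and 4.87 against 1.22, 1.29 and 1.40 for the vector, a 3.34-fold difference (adjusted p = 0.0093), and no replicates overlapped. The pair lay 1.34 ± 0.03 (SE) above the sum of averages (limma with moderated variances, adjusted p = 3.1e-04, or 0.021 without moderation). Adjusted p-values of departures and of orientation differences are with moderated variances unless stated, unlike those against the vector. With its other 6 promoters E029 ranged from -0.19 to 1.08, with a median of -0.02. The second high value was with P013 (Fam32a), where E029 gave 2.70, 2.18 and 2.31 against 1.27, 1.14 and 0.980, or 2.12-fold (adjusted p = 0.019), also without overlap. With P016 (Klf2) it gave 0.777, 1.09 and 1.09 against 0.815, 1.37 and 1.11, a difference of -0.14. E029 was in the + orientation in all of these, so its orientation does not differ between them.

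E087 with P021 (Med26) lay 0.93 ± 0.02 above the sum (adjusted p = 3.1e-04), and E071 (chr8:72422937-72423387, within Gm46043) with P021 0.82 ± 0.03 above (adjusted p = 5.2e-04). Without moderation the adjusted p-values of these departures were 0.021 and 0.022. E087 with P021 gave 6.26, 5.74 and 5.95 against 2.58, 2.59 and 2.52, or 2.34-fold (adjusted p = 0.011), with no overlap. E071 with P021 gave 3.23, 3.01 and 2.96, a difference of 0.26, while with its other 9 promoters it was between -0.79 and -0.30. These 3 highest pairs were measured in 1 orientation each.

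The widest downward departures were E087 with P001 (-0.58 ± 0.04, adjusted p = 0.0010), E011 (chr8:71952937-71953387, within Zfp961) with P022 (-0.53 ± 0.02, adjusted p = 5.5e-04) and E087 with P013 (-0.50 ± 0.03, adjusted p = 8.8e-04). Without moderation their adjusted p-values were 0.032, 0.023 and 0.029. E011 was at -0.44 with P022 and between -0.08 and 0.51 with its other 9 promoters. E087 was at -0.31 with P001 and -0.08 with P013, against a median of 0.44 over the other 9 in each case. E042 (chr8:72257372-72257822) and P014 both overlap Ap1m1. With P014, E042 had the highest pair mean and was measured in + only. Its + construct gave 3.02, 2.48 and 2.28 against 1.29, 1.25 and 1.07, or 2.15-fold (adjusted p = 0.016), and its mean over all 10 promoters was 0.19 ± 0.10. The highest single cCRE construct with P014 was E087 in the - orientation, at 1.71.

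**Figure D4:**
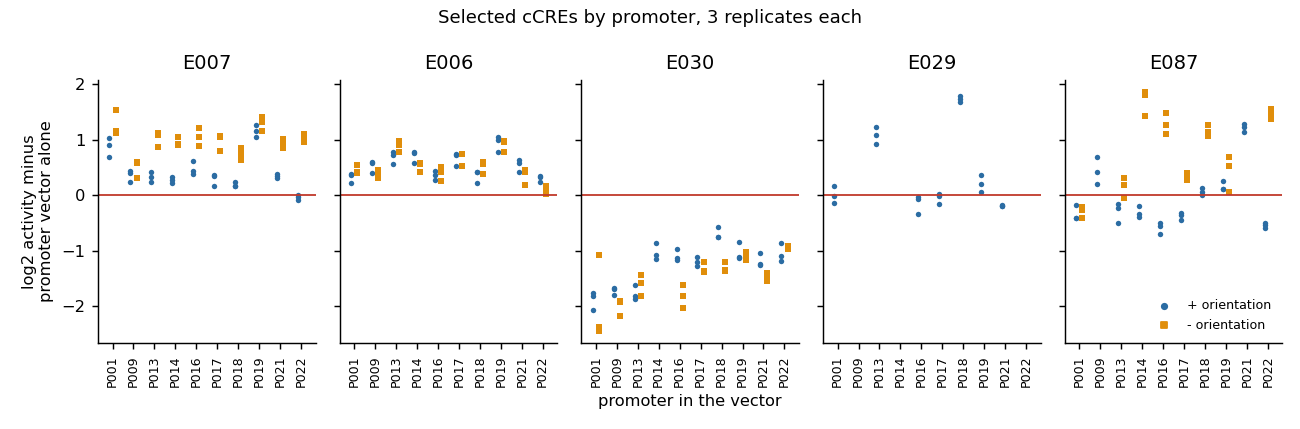
Log2 difference from the promoter vector alone for E007, E006, E030, E029 and E087 with each promoter, 1 point per replicate, in the + (blue circles) and - (orange squares) orientation. E007 and E006 lie above 0 and E030 below it with all promoters, apart from E007 in + with P022; E029 is high with P013 and P018, and E087 changes side with promoter and orientation.

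Pairs differed between orientations about as often for cCREs as for all inserts. Of the 612 pairs measured in both, 269 were called higher in + and 219 higher in - (79.7% called, against 79.5% of all 982 insert pairs, 42.2% higher in + and 37.4% higher in -). The median absolute difference between orientations was 0.28 for cCREs and 0.44 for the 175 pairs of control inserts, and 37 of the 612 cCRE pairs differed by at least 1 on the log2 scale. Among the 64 cCREs with both orientations for at least 5 promoters, 7 were higher in + with every promoter and 10 higher in - with every promoter.

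The 3 widest orientation differences all belonged to E087. With P014 (Ap1m1) it gave 1.12, 0.959 and 0.851 in + and 4.72, 3.39 and 3.76 in -, a + minus - difference of -2.01 ± 0.07 (SE, limma, adjusted p = 6.5e-05). With P022 (Smim7) it gave 2.81, 2.63 and 3.10 in + and 11.4, 10.3 and 12.8 in - (-2.01 ± 0.03, adjusted p = 2.4e-05). With P016 (Klf2) it gave 0.580, 0.845 and 0.758 in + and 1.96, 2.96 and 3.12 in - (-1.87 ± 0.06, adjusted p = 6.5e-05). Without moderated variances the adjusted p-values were 0.012 with P014, 0.0065 with P022 and 0.011 with P016. In these 3 pairs the vector lay between the orientations, at 1.29, 1.25 and 1.07 for P014, so E087 was above the vector in - and below it in +.

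E087 was not split this way with every promoter. With P001 its orientations were alike, at -0.33 in + and -0.30 in -. With P018 (Calr3) it was at 0.07 in + and 1.16 in -. With P021 and P009 it was measured in + only, and there it was above the vector, at 1.22 and 0.44, while its + construct was below the vector with P001, P013, P014, P016, P017 and P022.

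Other cCREs kept 1 preferred orientation over all promoters. E105 (chr8:72734930-72735380, within Sin3b, a scaffold of the Sin3 histone deacetylase complex) averaged -0.97 in + and 0.07 in -, and E034 (chr8:72152641-72153091, within Tpm4, a tropomyosin gene) -0.16 in + and -1.11 in -. These pairs of values come from 10 promoters each, and both cCREs were chosen after the values were seen. E007 was higher in - with all 10 promoters, averaging 0.43 in + and 0.98 in -.

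**Figure D5:**
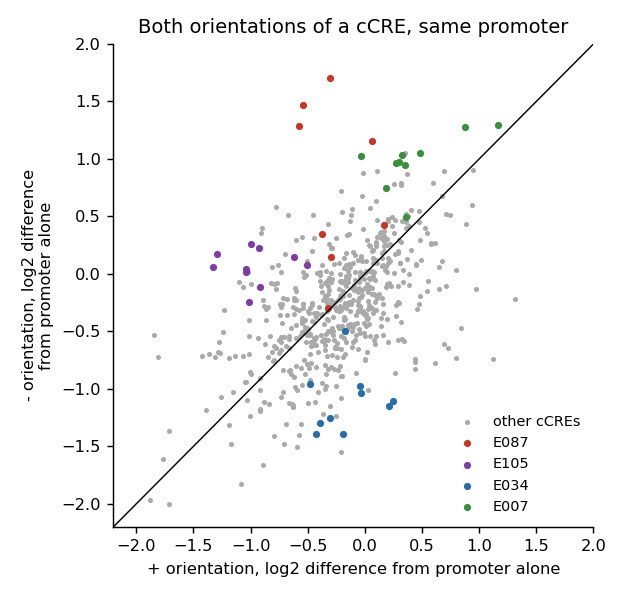
Log2 difference from the promoter vector alone in the + (horizontal axis) and - (vertical axis) orientation for the 612 pairs measured in both, mean of 3 replicates, with equality as the diagonal. E087 and E105 lie above the diagonal, E034 below it, and E007 above it with all 10 promoters.

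Fragments that overlap in the genome had different means. E005 (chr8:71900277-71900727) and E006 overlap by 96 bases, and their means were -0.54 ± 0.04 and 0.53 ± 0.10. E007 and E008 overlap by 69 bases with 0.70 ± 0.09 and 0.41 ± 0.09, E020 and E021 by 274 bases with 0.00 ± 0.08 and 0.29 ± 0.09, and E091 and E092 by 79 bases with -0.49 ± 0.07 and -0.88 ± 0.05. These differences were described and not tested.

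Shuffling was measured for 5 cCREs, each with 3 shuffled versions. The shuffled versions of E006 averaged -0.52 (from -0.65 to -0.35), against 0.53 for the native fragment. Those of E030 averaged -0.39 (from -0.49 to -0.28), against -1.36. E046 (chr8:72271221-72271671, between genes) had 0.37 against a mean of -0.07 for its shuffled versions, which ranged up to 0.24. E095 had -0.20 against -0.69, and E027 -0.20 against -0.34, with the native E027 inside the range of its shuffled versions, -0.60 to -0.01. Native and shuffled fragments sat in separate sub-libraries.

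The mean effect of a cCRE went with its activity in other settings. Across 75 cCREs, the mean difference correlated with the log2 activity of the same fragment in the vector without promoter (r = 0.67, rho = 0.64), in the same transfections. Across 72 cCREs it correlated with the mean effect of the fragment upstream of the same promoters, in other transfections (r = 0.74, rho = 0.63), and pair by pair the correlation was 0.58 over 652 pairs (rho = 0.53). E007 was at 1.55 upstream and E030 at -1.59, while E087 was at -0.42 upstream and 0.37 downstream. Without a promoter E007 had an activity of 0.534 and E030 of 0.0588.

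Position along the chromosome went little with effect. The correlation of the mean difference with the midpoint was -0.19 over 76 cCREs (rho = -0.16), and the median was -0.24 for the 55 cCREs that overlap a gene and -0.27 for the 21 between genes. The departure from the sum of averages had a correlation of -0.02 with the log10 genomic distance between cCRE and promoter over 732 pairs (rho = -0.00467), which share cCREs and promoters. The 33 pairs within 20 kb had a median departure of -0.02, from -0.32 to 0.81, and the 699 pairs farther apart had -0.01.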

How the data were processed

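Activities came from the deposited Downstream table of the 3 cDNA samples (biological replicates by title). Per the labels, barcodes were counted in cDNA and in plasmid DNA as input; the submitters' processing notes name Bowtie2 and mm10, and the scaling of the ratio, barcode filters and counts are not given in the sources used here. The authors' deposited activity is a linear ratio per replicate, and their log2 boost index was only checked against it. Of 2364 combinations none held a 0 or a missing value, and 18 per-replicate columns given to no sample were not used.

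Log2 differences were formed within each replicate (construct minus promoter vector alone, minus the mean control insert, + minus - orientation, or pair minus the sum of averages) and tested with limma 3.58.1 in R 4.3.3 (lmFit, eBayes, two-sided, Benjamini-Hochberg at 0.05 over all inserts); descriptions used Python 3.11.15 with pandas 2.3.3. The fit was tested on simulated data. Against the vector alone the prior degrees of freedom came out infinite, giving 1 pooled standard error for all combinations (0.0654) and for all cCRE means (0.0463). No pseudocount or activity filter was used. Upstream effects used the authors' deposited mean ratios, with no replicate values. Construct and vector are read in the same sample, which is where the pairing by replicate comes from.

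Regions named were all promoters; the 5 highest and 5 lowest cCRE means among cCREs with at least 5 promoters; each promoter's highest and lowest cCRE; the 3 widest departures each way; the 3 widest orientation differences; overlapping cCREs; and others where the text says so. The members, lists and tests were chosen with earlier results of these data known. Alternatives were other baselines, medians, a pseudocount of 0.01, an activity of at least 0.1, subsets of cCREs, each replicate or promoter left out, no replicate block and, added after the data were seen, no moderation of variances and, for departures, averages over every insert.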

Additional observations from a re-analysis of the deposited data

How the results depend on the processing

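Depth is unknown, the promoter vector is 1 value per replicate shared by all its combinations, and 3 replicates of 1 plasmid pool limit every test. Counts against the vector alone (266 higher, 819 lower) depended most on the reference: with control inserts as baseline 763 were higher and 377 lower, and with the median construct 592 and 504. Without the replicate block 144 were higher, and without moderated variances 139. The cCRE means (14 higher, 56 lower) became 46 higher and 19 lower against control inserts, and 7 were higher without moderation. Without the replicate block, combinations against control inserts gave 505 higher and 212 lower, and orientation 142 and 112. Departures from the sum of averages (243 above, 265 below) became 159 and 168 without moderation, and 415 and 522 with each orientation on its own. The P021 mean was -0.42 as a median over cCREs. Apart from the shares given in the Results, backgrounds over all inserts were not computed for these alternatives.

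Leaving out each replicate in turn gave 214 to 312 combinations higher and 781 to 798 lower than the vector alone, 10 to 19 cCREs higher and 52 to 54 lower, 710 to 754 combinations higher and 333 to 384 lower than the controls, 242 to 251 and 192 to 205 for orientation, and 191 to 200 and 217 to 225 for departures. No named cCRE mean, departure or orientation difference changed sign under the alternatives run for it, but the balance of higher and lower calls turned with the reference, as above. Of those named values 1 lost its call, the E029 mean as a median. Of the 30 named combinations called against the vector, 1 lost its call without moderation (E030 with P001 in -) and 1 without the replicate block (E007 with P016 in +). The causes were not tested.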
